A study of Homo sapiens with 7 samples.

Results

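The keratin-associated protein genes, whose symbols begin with KRTAP and a digit, numbered 94 among the 20033 protein-coding genes that GENCODE 44 places on the nuclear chromosomes of hg38. They were taken by symbol alone. Their start sites were placed against the 5 deposited domain sets of H3K9me3 and H3K27me3 in HCT116 cells, a human colorectal carcinoma line. The study asked how UHRF1 and DNMT1 maintain DNA methylation, and its histone mark domains describe the chromatin of the baseline cells. Those cells were Clone 3 and Clone 6, which each carry a doxycycline-inducible shRNA against UHRF1 and were grown without doxycycline for 14 days. Each clone is a single line, so a difference between them is a difference between 2 clones. The libraries were 2 H3K9me3 and 2 H3K27me3 immunoprecipitations and 1 input of Clone 3, and 2 H3K27me3 immunoprecipitations of Clone 6. H3K9me3 of Clone 6 on its own was not analysed here, and enters through the set shared by both clones.

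Keratin-associated proteins fill the matrix of the hair shaft, where their cysteines form disulfide bonds with each other and with the hair keratins. By composition they fall into high-sulfur, ultrahigh-sulfur and high-glycine-tyrosine proteins, and their small genes stand in a few tandem clusters that are used in the hair follicle and not in the gut. H3K9me3 is the mark of constitutive heterochromatin, read by HP1 proteins, and H3K27me3 is the mark that Polycomb repressive complex 2 writes on silent developmental and lineage genes. Both spread over long stretches of chromatin, so that neighbouring genes often lie in 1 domain. Domain sets hold no expression values, so whether any member was transcribed in these cells, and whether the cells carry colon epithelial markers, could not be read from them.

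The 94 genes stood in 5 clusters, within which neighbouring start sites were at most 1 Mb apart. On chromosome 11 a short-arm cluster held 6 genes, KRTAP5-1 to KRTAP5-6, over 113 kb from 1584342 to 1697755, and a long-arm cluster held 5 genes, KRTAP5-7 to KRTAP5-11, over 76.1 kb from 71527267 to 71603353. The chromosome 17 cluster held 34 genes over 322 kb from 40993430 to 41315710, with KRTAP3-3 at one end and KRTAP17-1 at the other. On chromosome 21 a cluster nearer the centromere held 33 genes over 757 kb from 30281309 to 31038476, from KRTAP24-1 to KRTAP19-8, and is called the proximal cluster. A distal cluster on the same arm held 16 genes over 159 kb from 44538981 to 44698044, from KRTAP10-1 to KRTAP10-12. No start site of another protein-coding gene lay between the first and the last member of any of the 5 clusters. The canonical transcript of each of the 94 genes had 1 exon. The symbols name 26 families, and no family had members on more than 1 chromosome. Families of 1 member, such as KRTAP7 and KRTAP8, could only stand on 1.

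Promoter sequences are shown, where RefSeq had an entry, for a member of each protein type in each cluster, chosen by protein length closest to the median, and for the 2 members of the proximal cluster that differed from the other 31. Each runs from 250 bases before to 50 bases after the start, 5′ to 3′, from RefSeq GRCh38.p14. Capitals mark every CpG and every TATAAA on the strand shown.
KRTAP5-3 (chr11:1608414-1608713, minus strand): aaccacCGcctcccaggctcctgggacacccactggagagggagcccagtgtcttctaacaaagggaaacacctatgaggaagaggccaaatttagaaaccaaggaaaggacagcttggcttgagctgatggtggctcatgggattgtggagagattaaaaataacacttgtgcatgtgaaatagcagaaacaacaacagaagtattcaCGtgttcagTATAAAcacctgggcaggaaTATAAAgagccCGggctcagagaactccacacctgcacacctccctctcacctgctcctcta
KRTAP5-9 (chr11:71548170-71548469, plus strand): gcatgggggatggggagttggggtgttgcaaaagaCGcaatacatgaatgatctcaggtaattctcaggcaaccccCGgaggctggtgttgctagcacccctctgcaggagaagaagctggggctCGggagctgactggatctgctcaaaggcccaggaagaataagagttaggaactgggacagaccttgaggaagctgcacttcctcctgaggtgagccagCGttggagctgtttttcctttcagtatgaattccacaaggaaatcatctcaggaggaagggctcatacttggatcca
KRTAP1-3 (chr17:41034825-41035124, minus strand): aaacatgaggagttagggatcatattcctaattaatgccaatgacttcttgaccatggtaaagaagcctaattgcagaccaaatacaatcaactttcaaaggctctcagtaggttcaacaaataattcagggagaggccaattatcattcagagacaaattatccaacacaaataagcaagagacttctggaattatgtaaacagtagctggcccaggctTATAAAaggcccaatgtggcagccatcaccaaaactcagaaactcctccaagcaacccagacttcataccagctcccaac
KRTAP27-1 (chr21:30337645-30337944, minus strand): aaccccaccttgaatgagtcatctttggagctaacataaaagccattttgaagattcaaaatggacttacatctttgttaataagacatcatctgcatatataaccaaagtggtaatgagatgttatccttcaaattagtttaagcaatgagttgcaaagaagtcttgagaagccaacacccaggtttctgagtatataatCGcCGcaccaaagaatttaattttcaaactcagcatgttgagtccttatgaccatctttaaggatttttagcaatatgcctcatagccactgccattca
KRTAP19-5 (chr21:30502092-30502391, minus strand): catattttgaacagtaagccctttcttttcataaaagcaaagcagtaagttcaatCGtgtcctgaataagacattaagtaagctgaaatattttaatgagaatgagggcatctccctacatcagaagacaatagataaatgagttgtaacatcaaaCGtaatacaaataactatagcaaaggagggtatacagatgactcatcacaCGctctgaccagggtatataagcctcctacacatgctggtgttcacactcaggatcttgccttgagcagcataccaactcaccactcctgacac
KRTAP11-1 (chr21:30881531-30881830, minus strand): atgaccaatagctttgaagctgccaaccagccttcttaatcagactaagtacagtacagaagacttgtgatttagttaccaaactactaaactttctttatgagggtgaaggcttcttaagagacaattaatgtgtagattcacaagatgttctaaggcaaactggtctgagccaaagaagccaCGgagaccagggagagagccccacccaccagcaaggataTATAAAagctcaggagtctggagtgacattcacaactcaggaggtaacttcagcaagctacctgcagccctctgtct
KRTAP19-8 (chr21:31038427-31038726, minus strand): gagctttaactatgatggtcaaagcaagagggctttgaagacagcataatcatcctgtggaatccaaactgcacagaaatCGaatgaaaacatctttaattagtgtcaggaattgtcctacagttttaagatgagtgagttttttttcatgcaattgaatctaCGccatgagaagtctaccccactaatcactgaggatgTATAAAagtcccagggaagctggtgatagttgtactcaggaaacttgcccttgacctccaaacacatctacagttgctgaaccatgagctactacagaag
KRTAP10-2 (chr21:44551456-44551755, minus strand): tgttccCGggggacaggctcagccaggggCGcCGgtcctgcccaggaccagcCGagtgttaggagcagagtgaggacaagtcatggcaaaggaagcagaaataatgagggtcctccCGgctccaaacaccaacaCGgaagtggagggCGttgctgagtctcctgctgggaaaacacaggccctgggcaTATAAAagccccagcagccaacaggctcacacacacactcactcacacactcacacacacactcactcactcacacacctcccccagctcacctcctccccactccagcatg
In each of these 8 genes the RefSeq start and the GENCODE canonical start were the same base. KRTAP1-3 and KRTAP5-3, from the clusters in none of the sets, had 0 and 3 CpGs in their 300 bases. KRTAP27-1 and KRTAP19-5, from the H3K9me3 domain, had 2 and 3 CpGs, and KRTAP10-2, from the distal cluster, had 7.

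Of the 94 members, 80 matched a RefSeq promoter by symbol, and these 80 held a median of 2 CpGs (0 to 13) against 22 over 15345 protein-coding genes with a promoter. Promoters without any CpG made up 12 of the 80 (15%), beside 1.88% of all promoters. The letters TATAAA, searched on both strands over the 300 bases, occurred in 64 of the 80 (80%) and in 9.63% of all promoters. Between 40 and 16 bases before the start, on the strand of the gene, they occurred in 34 of the 80 (42.5%) and in 3.7% of all. By cluster the share with TATAAA was 87.9% of 33 on chromosome 17, 76.7% of 30 in the proximal cluster and 73.3% of 15 in the distal cluster. Of the 2 chromosome 11 promoters matched, KRTAP5-3 had the letters and KRTAP5-9 did not. The match to letters is a description of sequence and not of a bound factor. The members without an entry were KRTAP5-1, KRTAP5-2, KRTAP5-4, KRTAP5-5, KRTAP5-6, KRTAP5-7, KRTAP5-8, KRTAP5-10, KRTAP5-11, KRTAP9-8, KRTAP10-4, KRTAP19-2, KRTAP19-4 and KRTAP21-1.

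A gene was counted in a set when its start site lay in a domain of that set. In Clone 3 H3K9me3, 31 of the 94 members (33%) lay in a domain, where 3.35% of all protein-coding genes did. The same 31 lay in clone-shared H3K9me3 domains, where the share of all genes was 3.24%. In Clone 3 H3K27me3, 1 member (1.06%) lay in a domain beside 6.44% of all genes, and the same member was the only 1 in the clone-shared H3K27me3 domains, beside 5.32%. In Clone 6 H3K27me3, 18 members (19.1%) lay in a domain beside 7.97% of all genes. The remaining 45 members (47.9%) lay in no domain of any set, as did 87.6% of all protein-coding genes. The deposited sets are already merged over replicates and neighbouring members share domains, so no error can be attached to these counts and no test was made on them.

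**Figure D1:**
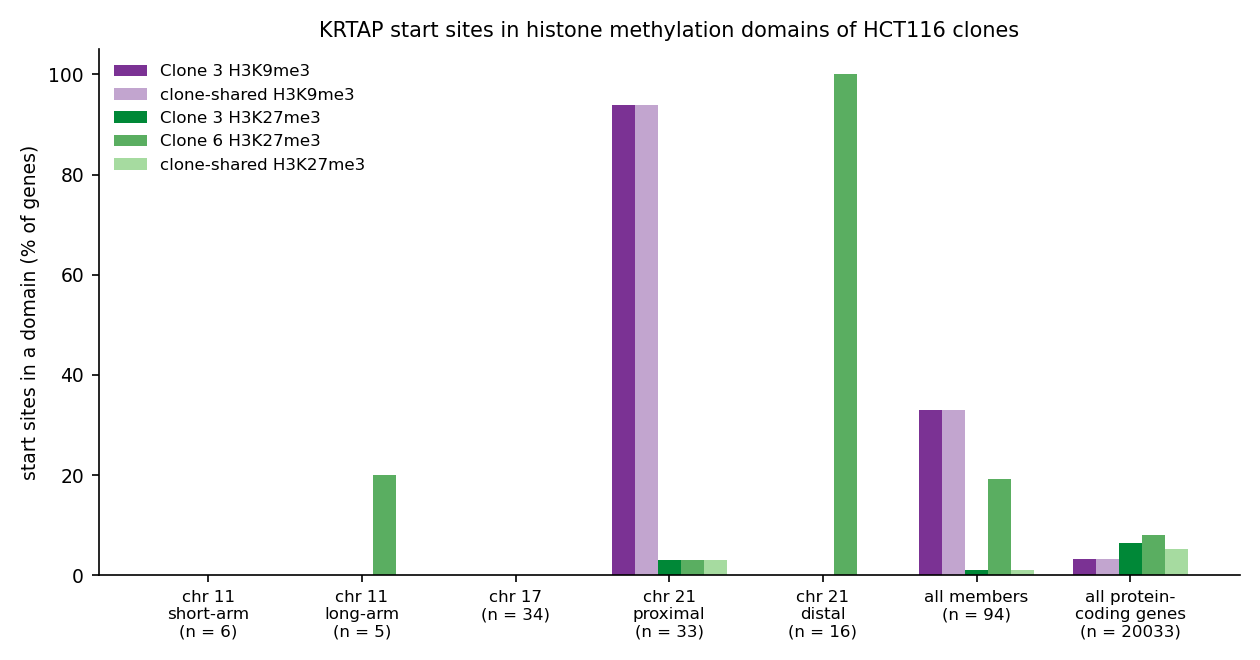
Share of start sites (% of genes, vertical axis) that lay in a domain of each of the 5 sets, for the 5 KRTAP clusters, all 94 members and all 20033 protein-coding genes. Bars are single values without error, since replicates are merged. H3K9me3 stands over the proximal cluster of chromosome 21 (93.9%), Clone 6 H3K27me3 over the distal cluster (100%), and the chromosome 17 cluster has no bar.

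The totals hid clusters in entirely different states, and each cluster was largely of one kind. The 31 members in H3K9me3 all belonged to the proximal cluster of chromosome 21. Of the 18 members in Clone 6 H3K27me3, 16 made up the whole distal cluster, 1 was KRTAP19-8 of the proximal cluster and 1 was KRTAP5-10 of the long-arm cluster of chromosome 11. No member lay both in an H3K9me3 and in an H3K27me3 domain. All 34 members on chromosome 17 and all 6 of the short-arm cluster of chromosome 11 were outside all 5 sets.

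The proximal cluster of chromosome 21 held most of the high-glycine-tyrosine genes. Of its 33 members, 31 lay in 1 Clone 3 H3K9me3 domain of 1129 kb, from 29711001 to 30840000. In order along the chromosome these were KRTAP24-1, KRTAP25-1, KRTAP26-1, KRTAP27-1 and KRTAP23-1, then the 4 KRTAP13 genes and KRTAP15-1, then KRTAP19-1 to KRTAP19-7, the KRTAP6, KRTAP20 and KRTAP22 genes, the 3 KRTAP21 genes, KRTAP8-1 and KRTAP7-1. The domain also held the start sites of GRIK1, a kainate receptor subunit, and of CLDN17 and CLDN8, claudins of the tight junction. With 34 start sites it ranked number 2 of 567 domains of the set by number of genes, and first when domains on chromosome 19 were left out, although it ranked 104th by length. The lower of its 2 scores stood at percentile 82.7 of the set. In the clone-shared set the same coordinates were kept, with rank 2 of 478 by number of genes.

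These 31 genes made up 4.61% of the 672 protein-coding start sites in Clone 3 H3K9me3 domains, and 68.9% of the 45 on chromosome 21. Among the 171 other protein-coding genes of chromosome 21, 14 (8.19%) lay in such a domain. The first member, KRTAP24-1, started 572 kb inside the domain, and the last one in it, KRTAP7-1, started 10.2 kb from its end. A stretch of 3 kb separated the end from a second H3K9me3 domain of 33 kb, from 30843001 to 30876000, which held no start site. Together they covered 78.1% of the span of the cluster in both H3K9me3 sets.

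The end of the proximal cluster was where the marks changed. KRTAP11-1, a gene for a high-sulfur protein, started at 30881580, 5.58 kb beyond the last base of H3K9me3, and lay in none of the 5 sets. That last base, from which the gaps below are also measured, is the end of the short domain with the low score. The long H3K9me3 domain ended at 30840000. KRTAP19-8, a high-glycine-tyrosine gene 157 kb beyond KRTAP11-1 at 31038476, lay in H3K27me3 in both clones. Its Clone 3 domain ran over 186 kb from 30909001 to 31095000, and its Clone 6 and clone-shared domain over 118 kb from 30968001 to 31086000. KRTAP19-8 was the only protein-coding start site in each of these domains. Between the end of H3K9me3 and the start of H3K27me3 lay 33 kb in Clone 3 and 92 kb when the Clone 6 domain was taken, and KRTAP11-1 fell within that gap. It was 27.4 kb from the Clone 3 and 86.4 kb from the Clone 6 H3K27me3 domain. H3K27me3 covered 17.1% of the span of the cluster in Clone 3 and 9.31% in Clone 6.

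KRTAP19-8 differed in state from the 7 other members of its own family, KRTAP19-1 to KRTAP19-7, which all lay in H3K9me3. Its protein was like theirs, with 63 residues, 6.35% cysteine and 60.3% glycine and tyrosine, where the family medians were 67.5 residues, 7.46% and 59.5%. KRTAP11-1 was longer, with 163 residues, 14.1% cysteine and 9.82% glycine and tyrosine. On the flanks of the cluster, CLDN8 lay in H3K9me3 at 65.2 kb before the first member, and TIAM1, an activator of the GTPase RAC1, lay after the last member with its 3′ end 79.9 kb away and its start site, at 31559977, in no domain of any set.

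**Figure D2:**
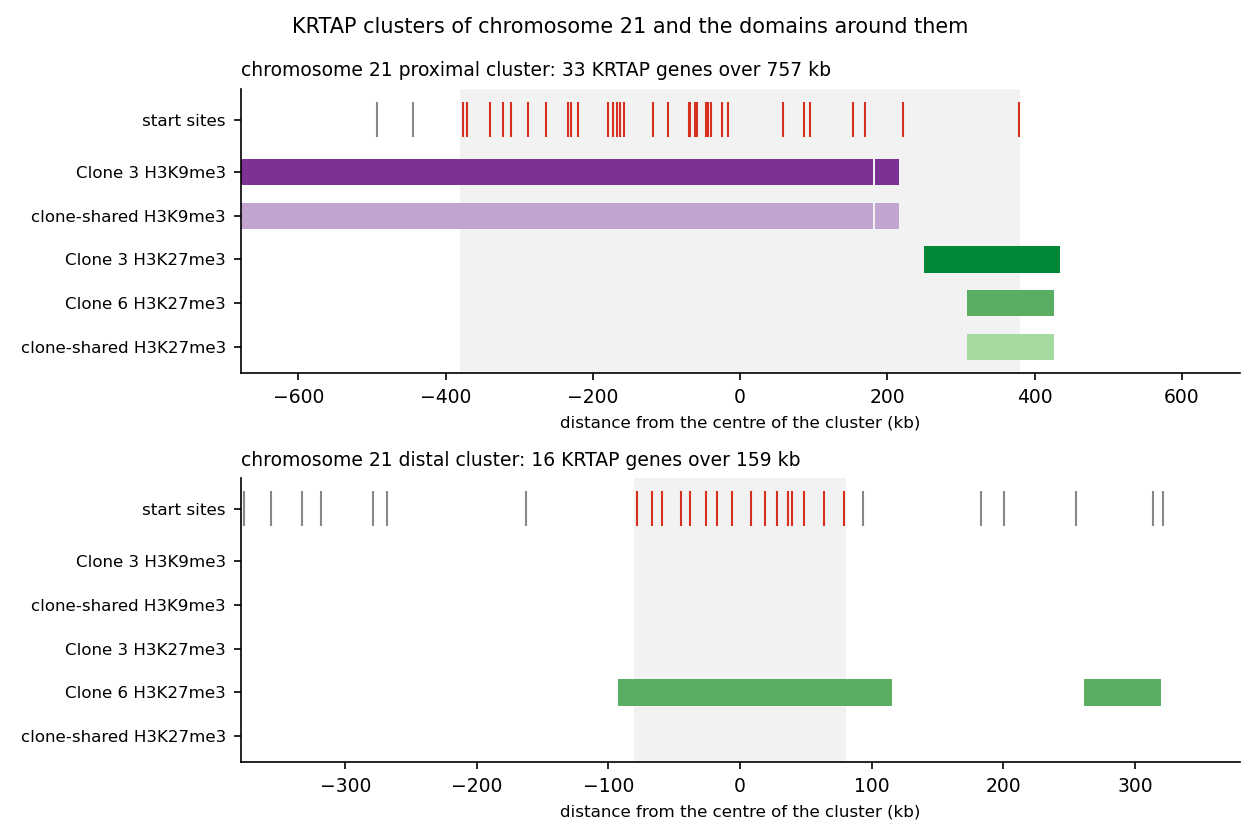
Map of both KRTAP clusters of chromosome 21, with distance from the centre of the cluster in kb on the horizontal axis. Red ticks are KRTAP start sites, grey ticks start sites of other protein-coding genes, the shaded band is the span of the cluster and bars are domains of the named set. In the proximal cluster a short H3K9me3 domain of 33 kb ends 5.58 kb before KRTAP11-1 and H3K27me3 begins beyond that gene. In the distal cluster 1 Clone 6 H3K27me3 domain of 208 kb spans the whole cluster.

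The distal cluster of chromosome 21 lay in 1 Clone 6 H3K27me3 domain of 208 kb, from 44526001 to 44734000, and in no other set. All 16 members started in it, namely the 12 KRTAP10 and 4 KRTAP12 genes, and it covered 100% of the span. It reached 13 kb before the first member base and 36 kb beyond the last. With 17 start sites it ranked number 5 of 1959 domains of the set by number of genes and 511th by length, and the lower of its 2 scores stood at percentile 67.4. The 17th start was that of TSPEAR, a gene with a known role in hair follicle and tooth development, which hosts the cluster. By GENCODE, 15 of the 16 members lay in TSPEAR introns, and KRTAP10-4 overlapped a TSPEAR exon.

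In Clone 3 no H3K27me3 domain came within 908 kb of any of these 16 start sites, and the farthest was 1065 kb away. The clone-shared set gave the same distances. H3K9me3 was farther still, at 3517 to 3674 kb. The 2 clones thus differed over the whole cluster and not over some of its genes. On the flanks, LRRC3 before the cluster and UBE2G2, a ubiquitin-conjugating enzyme, after it started 70.5 and 67.8 kb from the Clone 6 domain and in no domain of any set. Of the 171 other protein-coding genes of chromosome 21, 21 (12.3%) lay in Clone 6 H3K27me3 and 5 (2.92%) in Clone 3 H3K27me3. Each clone is 1 line with its own libraries and its own domain set, and the only input among the libraries was of Clone 3. Clone, library and calling therefore cannot be told apart as the origin of the difference.

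On chromosome 17, 34 genes of the high-sulfur and ultrahigh-sulfur families stood in none of the sets, where 87.6% of all protein-coding genes lay. They were the 4 KRTAP1, 4 KRTAP2, 3 KRTAP3, 12 KRTAP4 and 8 KRTAP9 genes with KRTAP16-1, KRTAP17-1 and KRTAP29-1. The nearest domain was one of Clone 6 H3K27me3, between 1096 kb away at KRTAP3-3 and 1418 kb away at KRTAP17-1. For Clone 3 and clone-shared H3K27me3 the distances ran from 5433 to 5755 kb, and for both H3K9me3 sets from 6811 to 7133 kb. The median protein-coding gene was 500.2 kb from a Clone 6 H3K27me3 domain, 706 kb from a Clone 3 one and 3232 kb from Clone 3 H3K9me3, so these 34 members were farther from every kind of domain than the median gene. The cluster sits between the type I hair keratins KRT40, 6.29 kb before it, and KRT33A, 30.4 kb after it, and neither started in a domain. Among the 1152 other protein-coding genes of chromosome 17, 7 (0.608%) lay in Clone 3 H3K9me3, 53 (4.6%) in Clone 3 H3K27me3 and 75 (6.51%) in Clone 6 H3K27me3.

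On chromosome 11 the 11 KRTAP5 genes, which encode ultrahigh-sulfur proteins, lay outside all sets but for 1, which is near the 87.6% of all protein-coding genes in no set. In the short-arm cluster none of the 6 lay in any set, and the nearest domain was a Clone 6 H3K27me3 domain from 1884001 to 1926000, between 187 kb away at KRTAP5-6 and 299 kb away at KRTAP5-1. Clone 3 H3K27me3 was 344 to 456 kb away and H3K9me3 was 19191 to 19303 kb away. The flanking genes were DUSP8, a phosphatase of MAP kinases, 12.1 kb before the cluster and IFITM10 34.7 kb after it, and neither started in a domain.

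In the long-arm cluster KRTAP5-10 was the only member in a domain, a Clone 6 H3K27me3 domain of 28 kb from 71558001 to 71586000. The domain held no other protein-coding start site, covered 36.8% of the span, and ranked 1833rd of 1959 by length, with its lower score at percentile 17.3. KRTAP5-9 started 9.58 kb before it, KRTAP5-8 20 kb before it and KRTAP5-7 30.7 kb before it. KRTAP5-11 started 17.4 kb beyond it by its gene start at 71603353. The canonical transcript of KRTAP5-11 starts 20478 bases further inside, at 71582875, and that start lay in the domain, so the count for Clone 6 was 18 by gene starts and 19 by canonical starts. Before the cluster both clones had H3K27me3, in a domain of 75 kb from 71344001 to 71419000 in Clone 3 and the clone-shared set and one of 102 kb from 71318001 to 71420000 in Clone 6. After it Clone 3 had a domain of 19 kb from 71610001 to 71629000, 6.65 kb beyond the gene start of KRTAP5-11, and Clone 3 had none in the cluster itself. The other gene flanking the cluster at close range, NADSYN1, an NAD synthetase, ended 3.16 kb before it and started in no domain. On the far side XNDC1N-ZNF705EP-ALG1L9P, 202 kb away, also started in none. Of the 1306 other protein-coding genes of chromosome 11, 206 (15.8%) lay in Clone 6 H3K27me3 and 177 (13.6%) in Clone 3 H3K27me3.

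**Figure D3:**
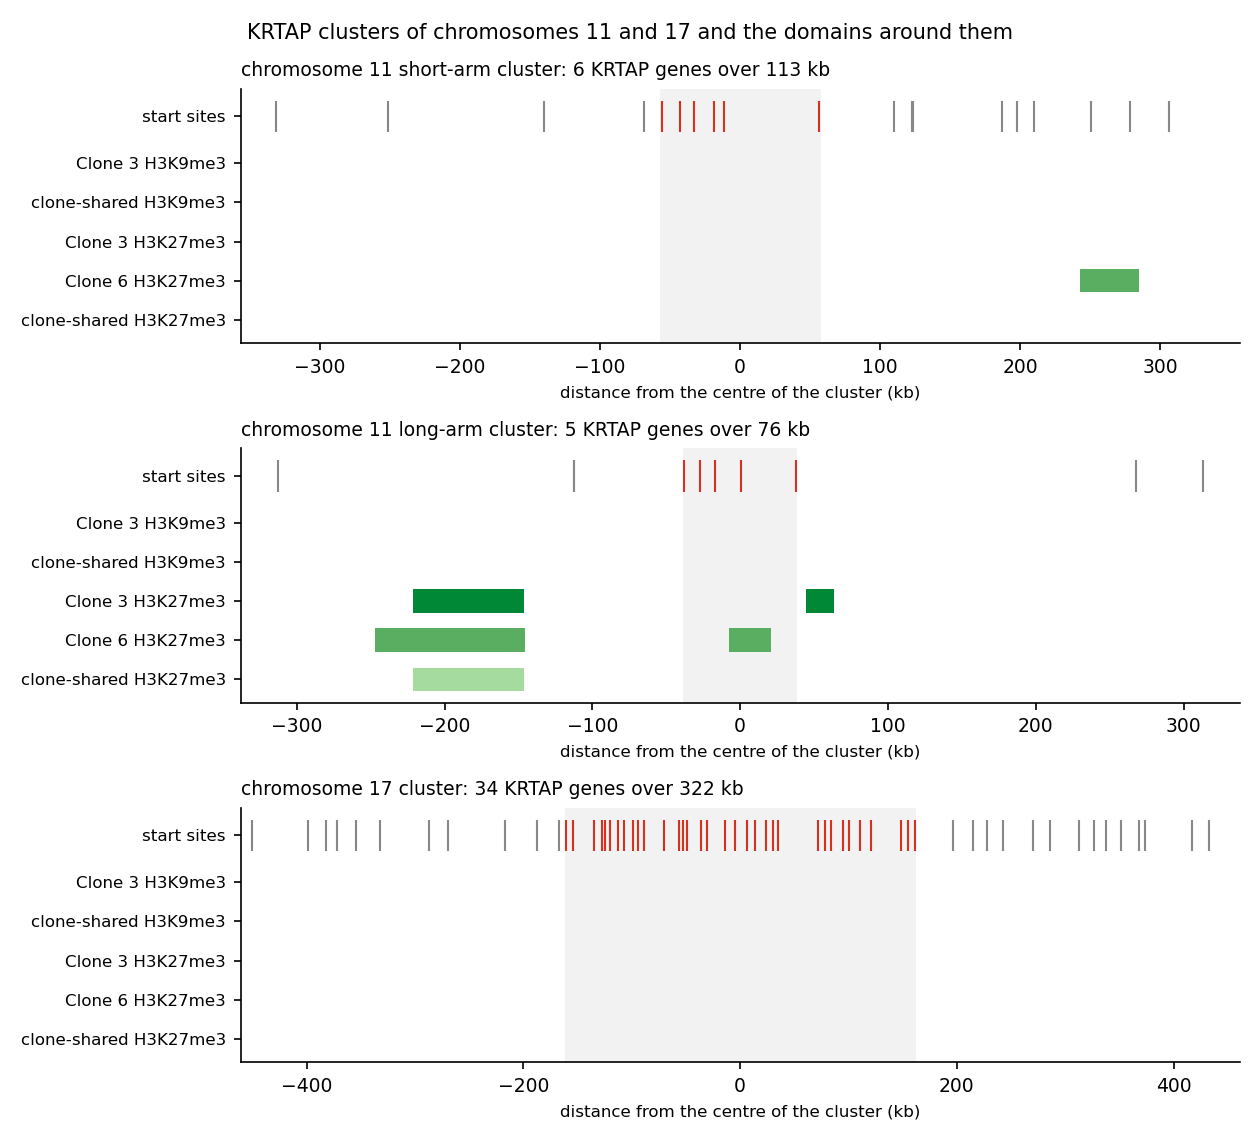
Map of the KRTAP clusters of chromosomes 11 and 17 in the same layout, with distance from the centre of the cluster in kb on the horizontal axis, red ticks for KRTAP start sites, grey ticks for other protein-coding start sites and bars for domains. One Clone 6 H3K27me3 domain of 28 kb lies inside the long-arm cluster of chromosome 11, and no domain of any set lies within 300 kb of the chromosome 17 cluster.

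The protein families are sorted by cluster, so that domain states also divided by the kind of protein encoded. Among the 31 members whose protein had more glycine and tyrosine than cysteine, 29 lay in Clone 3 H3K9me3, beside 3.35% of all protein-coding genes, and 30 of the 31 stood in the proximal cluster of chromosome 21. Among the other 63 members, 2 lay in Clone 3 H3K9me3, which is near the share of all genes, and 17 in Clone 6 H3K27me3, beside 7.97% of all genes. Of the 31 members with over 30% cysteine, 30 lay in no set by gene start, where 87.6% of all protein-coding genes lay, and the exception was KRTAP5-10. By its canonical start KRTAP5-11, with 35.3% cysteine, lay in Clone 6 H3K27me3 as well. The 27 members with over 20% and up to 30% cysteine divided into 16 in Clone 6 H3K27me3, 2 in H3K9me3 and 9 in no set. Of the 36 members with up to 20% cysteine, 31 stood in the proximal cluster of chromosome 21, 29 of them in H3K9me3, and the other 5 stood on chromosome 17 in no set. Members of like cysteine content thus differed in state between these clusters.

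The proteins of the proximal cluster were short, with a median of 79 residues (44 to 254), 10.3% cysteine and 42.3% glycine and tyrosine. KRTAP20-1 had the highest share of glycine and tyrosine, at 67.9% of 56 residues. The chromosome 17 proteins had a median of 166.5 residues, 32.5% cysteine and 4.76% glycine and tyrosine, with KRTAP4-6 highest in cysteine at 37.1%. The KRTAP5 proteins had medians of 32.4% cysteine on the short arm and 35.3% on the long arm of chromosome 11. In the distal cluster the medians were 257 residues, 25.8% cysteine and 3.07% glycine and tyrosine.

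**Figure D4:**
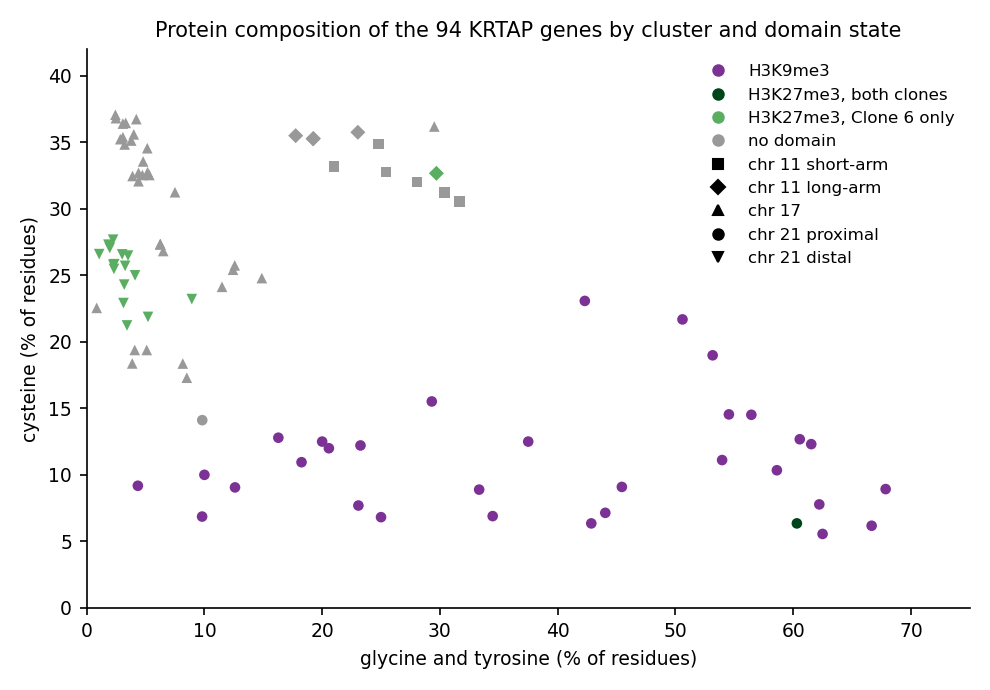
Cysteine (% of residues, vertical axis) against glycine and tyrosine (% of residues, horizontal axis) of the protein of each of the 94 members, with the cluster as the shape and the domain state of the start site as the colour. Members in H3K9me3 have 5.56% to 23.1% cysteine, and by gene start the members above 30% cysteine are in no domain apart from KRTAP5-10.

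CpG content was compared because the study turned on low-density CpGs, which here are CpGs with no other CpG closer than 20 bp in either direction. In the 100 kb around a start site, the 33 proximal members had a median of 6.59 CpGs per kb (5.89 to 8.79) and the 34 chromosome 17 members 7.61 (6.32 to 8.87), against a median of 13.4 over all protein-coding genes. Low-density CpGs made up a median of 68.2% and 65.6% of the CpGs in the same windows, against 46.1% over all genes. These clusters were the poorest in CpGs of the 5, and their states differed, one almost wholly in H3K9me3 and the other in no domain. The GC content of the windows was 36.6% and 39.9% at the median. In the 2 kb around the start alone, the median low-density share was 68.4% in the proximal cluster, 64.6% on chromosome 17, 50% and 47.9% in the long-arm and short-arm clusters of chromosome 11, and 34.3% in the distal cluster, against 14.4% over all genes.

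The distal cluster of chromosome 21 had a median of 17 CpGs per kb with 40.1% at low density, the long-arm cluster of chromosome 11 had 16.8 with 42.8%, and the short-arm cluster had 23.4 with 34.5%. The first was wholly in Clone 6 H3K27me3, the second had 1 member in it and the third had none. The ranges of the distal and the long-arm cluster overlapped, at 14.9 to 21.1 and 16 to 19.4 CpGs per kb. Within the proximal cluster, KRTAP11-1 with 7.19 CpGs per kb fell inside the range of the whole cluster, and KRTAP19-8 with 8.79 stood at the top of it.

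Over the whole genome, 3125 protein-coding genes outside the family had between 6.32 and 8.87 CpGs per kb in their 100 kb, the range of the chromosome 17 members. Of these, 5.18% lay in Clone 3 H3K9me3, 15.6% in Clone 3 H3K27me3 and 13.8% in Clone 6 H3K27me3. Over all protein-coding genes the shares were lower, at 3.35%, 6.44% and 7.97%. Of the 23 proximal members in the same range 21 lay in Clone 3 H3K9me3, and of the 34 chromosome 17 members 0 did. Most genes with surroundings this poor in CpGs were outside both marks, as were most protein-coding genes, but they lay in each mark more often than all genes did.

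**Figure D5:**
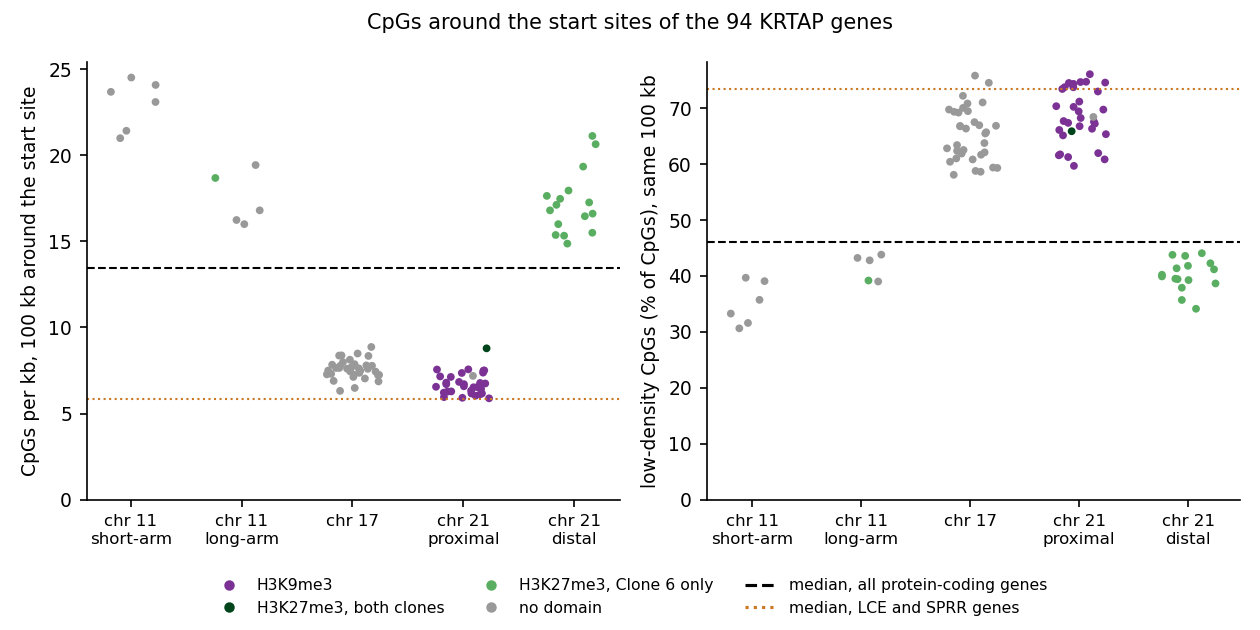
CpGs per kb (left) and low-density CpGs as a percentage of all CpGs (right) in the 100 kb around each of the 94 start sites, by cluster, with the domain state as the colour. Dashed lines are medians over all protein-coding genes (13.4 CpGs per kb and 46.1%) and dotted lines medians over the LCE and SPRR genes (5.88 and 73.4%). The chromosome 17 and proximal chromosome 21 members overlap in both panels.

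Other genes of the hair follicle were compared by a list of 35 genes of hair keratins, inner root sheath keratins, hair proteins and hair regulators. Of these, 0 lay in H3K9me3 (3.35% of all protein-coding genes in Clone 3), 1 (2.86%) in Clone 3 H3K27me3 beside 6.44% of all genes, and 6 (17.1%) in Clone 6 H3K27me3 beside 7.97%. The 11 type I and 6 type II hair keratins, which form the filaments that keratin-associated proteins bind, lay in no set. This is near the 87.6% of all protein-coding genes in no set. The 6 in Clone 6 H3K27me3 were KRT71, KRT72, KRT73 and KRT74, which are 4 of the 8 inner root sheath keratins listed, FOXN1, a transcription factor of the hair follicle, and TCHH, the inner root sheath protein trichohyalin. KRT25, KRT26, KRT27 and KRT28, the other inner root sheath keratins of the list, lay in no set. TCHH was the 1 gene of the list in Clone 3 and clone-shared H3K27me3.

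The LCE and SPRR genes, which encode proteins of the cornified envelope of the epidermis, form a tandem cluster of the same kind on chromosome 1. All 30 of them lay in H3K27me3 in Clone 3, in Clone 6 and in the clone-shared set, beside 6.44%, 7.97% and 5.32% of all protein-coding genes. They lay in 1 domain of 970 kb from 152498001 to 153468000 in Clone 3 and 1 of 1178 kb from 152310001 to 153488000 in Clone 6. None lay in H3K9me3, where the share of all genes in Clone 3 was 3.35%. Their surroundings held a median of 5.88 CpGs per kb with 73.4% at low density. Tandem clusters of short genes for cornified structures, all poor in CpGs, thus stood in H3K27me3 (LCE and SPRR), in H3K9me3 (31 of 33 members of proximal chromosome 21) and in no domain (chromosome 17) of the same cells. The last of these is also the state of 87.6% of all protein-coding genes. No test of the difference was made, since the genes of a cluster share domains, and the LCE and SPRR list was chosen with earlier results of these data known.

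Some KRTAP genes share stretches of identical sequence, in which a short read alone cannot be placed. Of the 50-base windows in the members' gene bodies, 18.2% had another exact copy on hg38 chromosomes, and 34 of the 94 members had no such window while 7 had more than 50% of theirs repeated. The share was 17.2% on chromosome 17, 23.1% in the distal cluster, 14.9% and 27.7% in the short-arm and long-arm clusters, and 1.41% in the proximal cluster, where 29 of 33 members had no repeated window. The long-arm value came mostly from the long gene body of KRTAP5-11, and the other 4 members of that cluster gave 9.78%. KRTAP9-2 (82.1%), KRTAP9-8 (74.7%) and KRTAP2-1 (66.2%) were the most repeated, all on chromosome 17. KRTAP10-6, with 51.4%, was the most repeated member that lay in a domain. What part repeated sequence has in the domain calls was not tested.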

How the data were processed

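H3K9me3 and H3K27me3 were measured by ChIP-seq in 6 immunoprecipitations and 1 input. Per the labels and the study's methods, the authors trimmed reads with Trim Galore 0.5.0, aligned them to hg38 with Bowtie2 2.3.5, removed duplicates with samblaster, and used the defaults of Enriched Domain Detector to find broad domains. The deposited sets used here hold the coordinates kept in both replicates of a clone, and those kept in both clones. Starts and ends are whole kb, and the clone sets carry 2 domain scores deposited by the authors with no scale named. Scores were used as ranks alone. The study's methods state a minimum read depth per library, but the depth each library reached, and the precision it gives, is not given by the domain sets, and merged replicates leave no replicate error.

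Members, clusters, start sites, coding sequences and 1-exon structure came from GENCODE 44, CpGs and 50-base copies from hg38 chromosomes, and promoters from RefSeq. Proteins were translated from the annotated coding sequence. Described singly were the ends of each cluster, members whose state differed from their cluster, those nearest to and farthest from a domain, and the flanking genes. KRTAP4-6, KRTAP20-1, KRTAP9-2, KRTAP9-8, KRTAP2-1, KRTAP10-6 and KRTAP10-4 were named after their values were seen. The members and lists were chosen with earlier results of these data known. The procedures were tested on simulated data, and used matplotlib 3.10.9, pandas 2.3.3 and numpy 2.4.6 under Python 3.11.15. Alternatives were gene bodies, canonical starts, domains of at least 100 kb, a margin of 10 kb, the upper 50% of domains by score, a span extended by 100 kb, a CpG spacing of 35 bp, and a CpG window of 100 kb in place of 2 kb.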

Additional observations from a re-analysis of the deposited data

How the results depend on the processing

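All 28 recomputed counts of start sites stayed within 1.5 times the reported count. H3K9me3 kept 31 members under every alternative in both sets, and Clone 3 and clone-shared H3K27me3 kept 1. Clone 6 H3K27me3 gave 17 to 19: 17 with domains of at least 100 kb, with 10 kb on either side inside a domain, or with the upper 50% of domains by score, which each leave out KRTAP5-10, and 19 by any base of the gene body or by canonical starts. Of 16 recomputed percentages of a cluster covered, 12 stayed within 1.5 times. With the span extended by 100 kb on either side, the long-arm cluster of chromosome 11 went from 0 to 6.88% in Clone 3 H3K27me3. The added bases there take in a Clone 3 domain of 19 kb. In Clone 6 the long-arm cluster went from 36.8% to 10.1%, and the distal cluster of chromosome 21 from 100% to 57.9%. For Clone 6 the added bases lie partly or wholly outside the domains. With domains of at least 100 kb, the long-arm cluster had 0% in Clone 6, its domain being 28 kb. All 5 median low-density shares in the 2 kb around starts were lower with the spacing of 35 bp: 47.9% became 30.7% and 50% became 40.9% in the short-arm and long-arm clusters of chromosome 11, 64.6% became 43.9% on chromosome 17, and 68.4% became 46.7% and 34.3% became 17.5% in the proximal and distal clusters of chromosome 21. With the window of 100 kb each of the 5 moved by less than the spread between members. One alternative was chosen after seeing the data: without KRTAP5-11, the share of repeated windows in the long-arm cluster was 9.78% in place of 27.7%. Score ranks could not be used for the clone-shared sets, which carry none. Leaving out a replicate was not possible, since replicates are merged in the deposited sets. No paired analysis was possible because no result comes from a test over samples. A domain missing from a set does not show that the mark was absent.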

Other observations

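The KRTAP pseudogenes of GENCODE 44, which the rule on protein-coding genes leaves out, were placed against the same sets. Of 17 pseudogenes, 8 started in Clone 3 and clone-shared H3K9me3 domains, and these were the 8 of 8 in the proximal cluster of chromosome 21, among them KRTAP13-5P, KRTAP19-9P and KRTAP8-2P. The shares of all protein-coding genes in these sets were 3.35% and 3.24%, and in Clone 6 H3K27me3 7.97%, and the share of all pseudogenes was not computed. Another 3 started in Clone 6 H3K27me3 domains, namely KRTAP12-5P and KRTAP10-13P in the distal cluster and KRTAP5-14P in the long-arm cluster of chromosome 11, where 4 of the 5 genes lay in no set. The 6 of the chromosome 17 cluster started in no domain of any set, as did 87.6% of all protein-coding genes. None of the 17 started in Clone 3 or clone-shared H3K27me3, beside 6.44% and 5.32% of all protein-coding genes. No test was made, because pseudogenes and genes of a cluster share the same domains.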
